A study of Mus musculus with 16 samples.

Results

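The Sall family comprises 4 genes in the mouse, Sall1, Sall2, Sall3 and Sall4, which encode related zinc finger transcription factors. They were taken by gene name from an expression table of 22552 genes, and all 4 were present. The cells were pluripotent stem cell lines of a 129-M2rtTA mouse background, all made from adipocyte progenitor cells (APCs) of mice that carry doxycycline-inducible transgenes for Oct4, Sox2, Klf4 and c-Myc at the same genomic insertions. AN lines are nuclear transfer embryonic stem cells (ntESCs), made by placing an APC nucleus into an enucleated oocyte. AI lines are induced pluripotent stem cells (iPSCs), made from the same kind of APCs by adding doxycycline. F marks lines that the study classed as fully reprogrammed and P those it classed as partially reprogrammed by tetraploid complementation, which asks whether the cells can form a mouse when injected into a tetraploid host blastocyst.

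RNA-seq libraries came from 16 lines, 1 from each. AN F held AN20, AN15, AN9 and AN1 (n = 4), and AN P held AN7, AN6, AN5, AN3 and AN2 (n = 5). AI F held GS32 and the newer AI10, AI7 and AI3 (n = 4), and AI P held GS9, GS4 and the newer AI9 (n = 3). Each line is 1 clone and is the replicate here, so the spread between lines is the error of every comparison. The GS lines were iPSC lines from an earlier derivation. Passage numbers were 17 in GS4, 13 in GS32 and 5 to 7 in the other lines. For GS9 and GS32, 1 label field names GS4, and the lines were placed by their titles. Values are FPKM, read numbers scaled to transcript length and to library size. They can therefore be set side by side between genes of a line. Between lines the comparison is less direct, because the FPKM sums differed. The sum of FPKM over all genes was 661973 to 963434 per line. The depth relative to AN1 was estimated at 0.961 to 1.26, from the most common ratio of AN1 to the line among genes of low FPKM in both. Log2(FPKM + 1) correlated at 0.929 to 0.978 between lines. The defining pluripotency marker Pou5f1 (Oct4) stood at 614.6 to 1222 FPKM and Nanog at 47.7 to 131 FPKM in the 16 lines. Fibroblast markers were present in all 16 lines, with a summed FPKM of 883 to 3154 over the 20 genes, and feeder layers of mouse embryonic fibroblasts were part of the derivation. In such bulk samples, fewer cells of a type and less RNA per cell cannot be told apart.

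Sall proteins bind DNA through pairs of zinc fingers and recruit the NuRD chromatin remodelling and deacetylase complex through a short motif at the amino terminus. Sall4 is needed in the early embryo and belongs to the network of Oct4, Sox2 and Nanog in embryonic stem cells, where Sall1 is also expressed. Sall1 acts in the developing kidney and limb, Sall3 in limb, nerve and palate, and Sall2, the most divergent member, in neural and eye development. In the presence of thalidomide-like drugs, human SALL4 is a substrate of the ubiquitin ligase that contains cereblon.

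In the mm9 annotation (GENCODE vM1), Sall4 lies on the minus strand at chr2:168573832-168593443 with 7 transcripts, 5 of them coding. The first-exon region is overlapped by the lincRNA Gm14261 on the plus strand, which is not a row of the table, and reads from the overlap cannot be assigned by strand if the library was not stranded. Sall1 lies on the minus strand at chr8:91551147-91568061 with 1 transcript of 4 exons, and Sall2 on the minus strand at chr14:52930847-52948437 with 3 transcripts of 2 exons. Sequence shared between the members could in principle split reads between them. Of the distinct windows of 51 bases, the length of a read, in the coding transcripts of Sall1 (5202 windows), Sall2 (5382), Sall3 (6836) and Sall4 (5316), 0 occurred in a coding transcript of another gene. Each deposited value is 1 per gene and does not separate its transcripts.

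The primer pair that the study used to measure Sall4 by quantitative PCR is shown because it reads only some of the annotated transcripts. It is given 5′ to 3′ in lower case, with no part marked.
Sall4 forward primer: gttagatgtcaaggccaaggac
Sall4 reverse primer: ggcgtctacagagagactcgat
In mm9 the forward primer matched chr2:168581279-168581300 and the reverse primer chr2:168580982-168581003, both in exon 2 of the transcript Sall4-001. That transcript has 4 exons and 5073 bases, and the pair encloses 319 bases of it. The transcript Sall4-002, of 3741 bases and also 4 exons, holds the forward primer only, so the pair does not amplify it. The FPKM value of Sall4 does not separate these transcripts.

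Sall2 has 2 start sites in the RefSeq promoter table (GRCm38.p6), and its single FPKM value likewise does not separate transcripts from them. The 250 bases before each start are shown because they differ in composition. They are written 5′ to 3′ on the minus strand, with each CG dinucleotide in capitals.
Sall2 start site 1, chr14:52328671-52328920: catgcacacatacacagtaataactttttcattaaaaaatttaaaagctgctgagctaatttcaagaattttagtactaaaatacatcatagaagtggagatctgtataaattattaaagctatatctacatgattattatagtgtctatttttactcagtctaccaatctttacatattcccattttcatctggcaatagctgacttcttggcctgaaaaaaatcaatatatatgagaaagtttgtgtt
Sall2 start site 2, chr14:52316324-52316573: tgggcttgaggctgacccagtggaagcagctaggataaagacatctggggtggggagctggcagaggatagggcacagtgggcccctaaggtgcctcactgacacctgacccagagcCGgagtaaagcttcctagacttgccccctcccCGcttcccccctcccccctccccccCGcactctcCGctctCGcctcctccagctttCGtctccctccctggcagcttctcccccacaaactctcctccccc
Start site 1 held 0 CG dinucleotides and a GC content of 28%, and start site 2 held 6 and 64.4%. Over 32817 mouse promoters, the medians were 6 CG dinucleotides and 52.4%. The 3 Sall1 starts in the same table held 13, 25 and 30. AATATT, an AT-rich motif searched because Sall4 is known to bind AT-rich DNA, and the octamer ATTTGCAT were in none of these 5 windows on either strand. AATATT was in 6.17% and ATTTGCAT in 1.60% of all the promoters. Sall3 and Sall4 are not covered by the table used here.

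The 4 genes held a fixed order in the stem cell lines. Sall4 was the highest, Sall1 the next, Sall2 the third and Sall3 the lowest, and this order held in 16 of 16 lines. Over the 16 lines, the mean was 34.2 ± 8.24 FPKM for Sall4, 24.9 ± 6.66 for Sall1, 9.62 ± 2.46 for Sall2 and 1.09 ± 0.365 for Sall3 (SD, n = 16). Sall4 and Sall1 were near each other in some lines and apart in others. The ratio of Sall4 to Sall1 was lowest in GS4 (1.05), had a median of 1.37 and was highest in AN20 (2.16). Sall1 exceeded Sall2 by 1.81-fold (AI9) to 4.91-fold (GS4), and Sall2 exceeded Sall3 by 5.32-fold (AI10) to 16.2-fold (AN6). Sall4 made up 42.5% (AI3) to 61.7% (AN20) of the summed FPKM of the family, and Sall3 made up 1.04% to 2.93%.

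**Figure D1:**
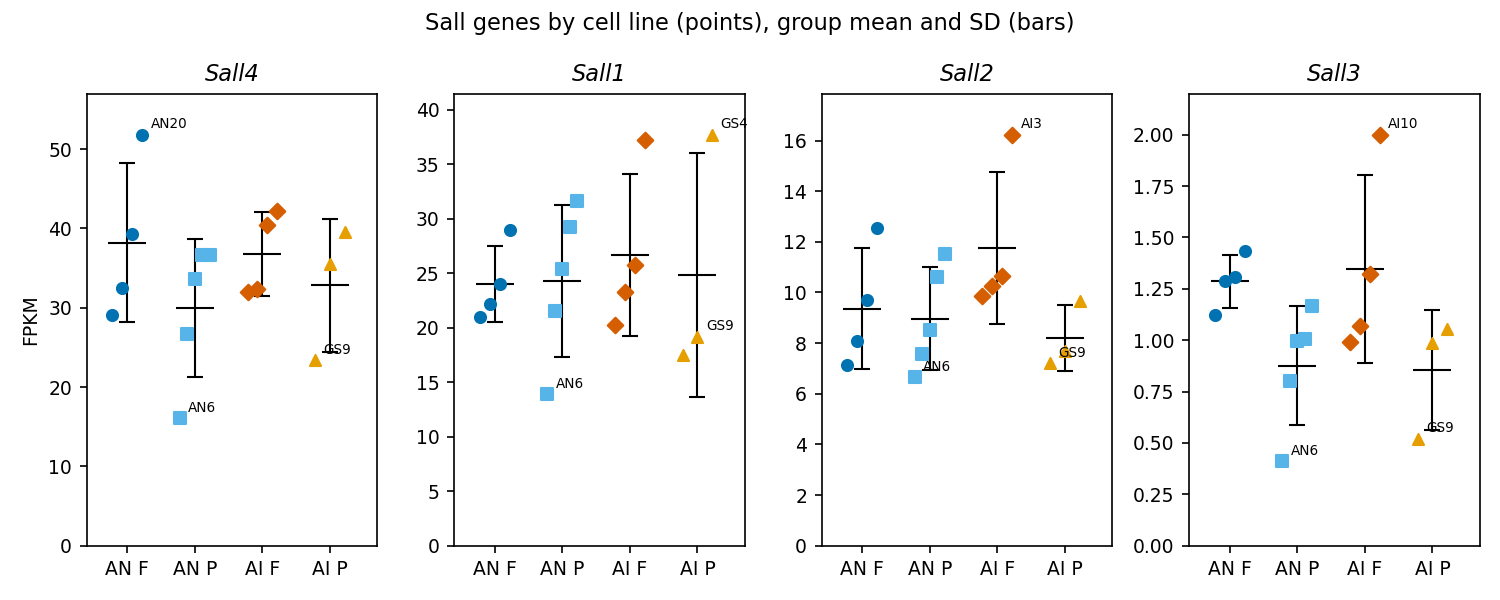
FPKM of Sall4, Sall1, Sall2 and Sall3 in each of the 16 lines by group (AN F, AN P, AI F, AI P), with 1 point per line, and the mean and SD of each group. AN6 is the lowest line in all 4 panels, and AI F and AI P do not overlap for Sall2.

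Sall4 was measured at 39.3 FPKM in AN1, 29.1 in AN9, 32.5 in AN15 and 51.8 in AN20. The AN P lines had 36.6 in AN2, 33.7 in AN3, 36.6 in AN5, 16.1 in AN6 and 26.7 in AN7. AN F and AN P overlapped, with the highest value of all lines in AN20 and the lowest in AN6. The AI F lines had 40.4 in AI3, 32.0 in AI7, 32.4 in AI10 and 42.2 in GS32, and the AI P lines 35.4 in AI9, 39.6 in GS4 and 23.4 in GS9. The AI groups also overlapped, and only GS9 lay below every AI F line. As mean ± SD, AN F had 38.2 ± 10.0 FPKM (n = 4), AN P 29.9 ± 8.73 (n = 5), AI F 36.7 ± 5.30 (n = 4) and AI P 32.8 ± 8.39 (n = 3).

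Sall1 was measured at 28.9 FPKM in AN1, 20.97 in AN9, 22.2 in AN15 and 24.0 in AN20. The AN P lines had 31.6 in AN2, 21.5 in AN3, 29.2 in AN5, 13.9 in AN6 and 25.4 in AN7. The values of AN F fell inside the range of AN P. The AI F lines had 37.3 in AI3, 20.3 in AI7, 23.3 in AI10 and 25.8 in GS32, and the AI P lines 17.5 in AI9, 37.7 in GS4 and 19.2 in GS9. The AI P lines spanned nearly the whole range of the study, with the highest Sall1 value in GS4. As mean ± SD, AN F had 24.0 ± 3.50 FPKM (n = 4), AN P 24.3 ± 6.99 (n = 5), AI F 26.7 ± 7.42 (n = 4) and AI P 24.8 ± 11.2 (n = 3).

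Sall2 was measured at 12.6 FPKM in AN1, 8.07 in AN9, 9.70 in AN15 and 7.13 in AN20. The AN P lines had 10.6 in AN2, 8.52 in AN3, 11.5 in AN5, 6.66 in AN6 and 7.55 in AN7. AN F and AN P overlapped over most of their range. The AI F lines had 16.2 in AI3, 9.85 in AI7, 10.6 in AI10 and 10.3 in GS32, and the AI P lines 9.67 in AI9, 7.69 in GS4 and 7.21 in GS9. AI F and AI P did not overlap, with AI F the higher, AI7 and AI9 next to each other and AI3 far above the rest. As mean ± SD, AN F had 9.36 ± 2.38 FPKM (n = 4), AN P 8.97 ± 2.04 (n = 5), AI F 11.7 ± 3.01 (n = 4) and AI P 8.19 ± 1.31 (n = 3).

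Sall3 was measured at 1.43 FPKM in AN1, 1.31 in AN9, 1.29 in AN15 and 1.12 in AN20. The AN P lines had 1.17 in AN2, 0.801 in AN3, 1.01 in AN5, 0.411 in AN6 and 0.995 in AN7. The groups touched only where AN2 exceeded AN20. The AI F lines had 1.07 in AI3, 0.993 in AI7, 2.00 in AI10 and 1.32 in GS32, and the AI P lines 0.988 in AI9, 1.05 in GS4 and 0.522 in GS9. The AI groups overlapped through AI7 and GS4. As mean ± SD, AN F had 1.29 ± 0.128 FPKM (n = 4), AN P 0.876 ± 0.291 (n = 5), AI F 1.35 ± 0.458 (n = 4) and AI P 0.854 ± 0.290 (n = 3).

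The order of the groups by mean FPKM was the same for Sall2 and Sall3 and another for each of Sall4 and Sall1. By mean FPKM it ran AN F, AI F, AI P and AN P for Sall4, AI F, AI P, AN P and AN F for Sall1, AI F, AN F, AN P and AI P for Sall2, and AI F, AN F, AN P and AI P for Sall3. For Sall4, Sall1 and Sall2, no neighbouring groups in that order differed beyond the spread of their lines, with exact two-sided permutation p of 0.229 to 1 for each pair of neighbours. For Sall3, AI F and AN F did not differ (exact permutation p = 0.943), nor did AN P and AI P (exact permutation p = 1). AN F and AN P had an exact permutation p of 0.0317, not adjusted for the number of pairs. These tests used log2(FPKM + 1). On that scale the Sall1 means ran AI F (4.754), AN F (4.635), AN P (4.611) and AI P (4.607). That was also the order of Sall2 and Sall3.

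The question of the study was whether expression differs between lines of full and partial pluripotency. All 4 members passed the filter on low values, a mean of at least 0.5 FPKM over the 16 lines, which 13185 genes passed. In the AN comparison, 0 of the 4 members were called at an adjusted p under 0.05 by limma, as were 0% of the genes tested. Without adjustment, 1 member (Sall3) had a p under 0.05, beside 6.01% of all genes tested, and 3.02% that were also higher in AN F. That p, 0.0347, was 0.0566 in a fit of all lines and 0.0626 to 0.0809 without AN1, AN9, AN15 or AN3 (limma). For 0 members were all AN F lines above all AN P lines, beside 0.584% of the genes tested. All 4 log2 fold changes were above 0, the direction of 46.2% of the genes tested. For Sall1 it was only 0.02, and by mean FPKM Sall1 was lower in AN F (24.0) than in AN P (24.3).

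Sall3 had a log2 fold change of 0.30 in AN F over AN P on the log2(FPKM + 1) scale, which understates changes of a gene this low. The standard error was 0.12, the 95% interval 0.03 to 0.57 and the adjusted p 0.636 by limma. With a pseudocount of 0.1 in place of 1, it was 0.57. Sall4 had a log2 fold change of 0.37 (SE 0.25, 95% interval -0.20 to 0.93, adjusted p = 0.640 by limma). Without AN6, the log2 fold change of Sall4 was 0.17. For Sall1 and Sall2 the values were 0.02 (SE 0.22) and 0.05 (SE 0.19), with adjusted p of 0.975 and 0.926 by limma, and both turned below 0 without AN6 (-0.15 and -0.04) or without AN1 (-0.07 and -0.09). Sall1 was also below 0 without AN3 (-0.0048). The 95% intervals, -0.46 to 0.51 for Sall1 and -0.37 to 0.47 for Sall2, leave room for differences of either sign. By exact permutation over the 126 splits of the AN lines, the p-values were 0.0317 for Sall3, 0.270 for Sall4, 0.810 for Sall2 and 1 for Sall1, where 0.0159 is the smallest possible.

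In the AI comparison, 0 members and 0% of the genes tested were called at an adjusted p under 0.05 by limma. Without adjustment 1 member (Sall2) had a p under 0.05, beside 7.77% of the genes tested, and 3.47% that were also higher in AI F. That p, 0.0497, was 0.0559 with no filter, 0.0502 with quantile normalization and 0.0786 with passage as a term (limma). It was 0.0587 to 0.140 without AI3, AI10, GS32, GS4 or GS9. It was also the only member whose AI F and AI P lines did not overlap, beside 1.69% of the genes tested that were higher in every AI F line. All 4 log2 fold changes were again above 0, as for 43.7% of the genes tested, and 15.8% of the genes tested were above 0 in both comparisons.

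Sall2 had a log2 fold change of 0.45 in AI F over AI P, with a standard error of 0.19, a 95% interval of 0.00079 to 0.91 and an adjusted p of 0.521 by limma. The exact permutation p was 0.0571, the smallest that the 35 splits allow. The AI lines came from separate derivations, and each leaves 1 line alone in a group, so the values within them carry no test. Among the 4 newly derived lines, the 3 AI F lines stood at 9.85 to 16.2 FPKM against 9.67 in AI9. Among the 3 earlier lines, GS32 stood at 10.3 against 7.21 and 7.69, and with derivation as a term the log2 fold change was 0.34 (adjusted p = 0.917 by limma, and 0.142 without adjustment).

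The other members had log2 fold changes of 0.33 for Sall3 (SE 0.18, adjusted p = 0.521), 0.18 for Sall4 (SE 0.20, adjusted p = 0.664) and 0.15 for Sall1 (SE 0.30, adjusted p = 0.820) by limma. With a pseudocount of 0.1, Sall3 had 0.60. The exact permutation p-values were 0.114, 0.571 and 0.686. The value for Sall4 was -0.04 without GS9, and that for Sall1 turned to -0.05 without AI9 and to -0.02 without AI3.

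The difference between the AI and the AN effect was largest for Sall2, at 0.40 on the log2 scale (95% interval -0.19 to 0.99, adjusted p = 0.442 by limma). It was 0.12 for Sall1, 0.03 for Sall3 and -0.19 for Sall4 (adjusted p of 0.877, 0.942 and 0.789 by limma). None of the 4 reached an unadjusted p under 0.05, beside 16.6% of the genes tested that did. Between AN and AI lines, with F and P weighted equally, the log2 differences were -0.06 for Sall1, -0.10 for Sall2, -0.003 for Sall3 and -0.06 for Sall4, each with an adjusted p of 0.999 by limma. An unadjusted p under 0.05 was reached by 0 members and by 3.52% of the genes tested. The sign for Sall1, Sall3 and Sall4 turned with passage as a term. Passage was above 7 only in GS4 and GS32, both AI lines of the earlier derivation. The 95% interval was widest for Sall1, at -0.46 to 0.35, and narrowest for Sall3, at -0.24 to 0.23.

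**Figure D2:**
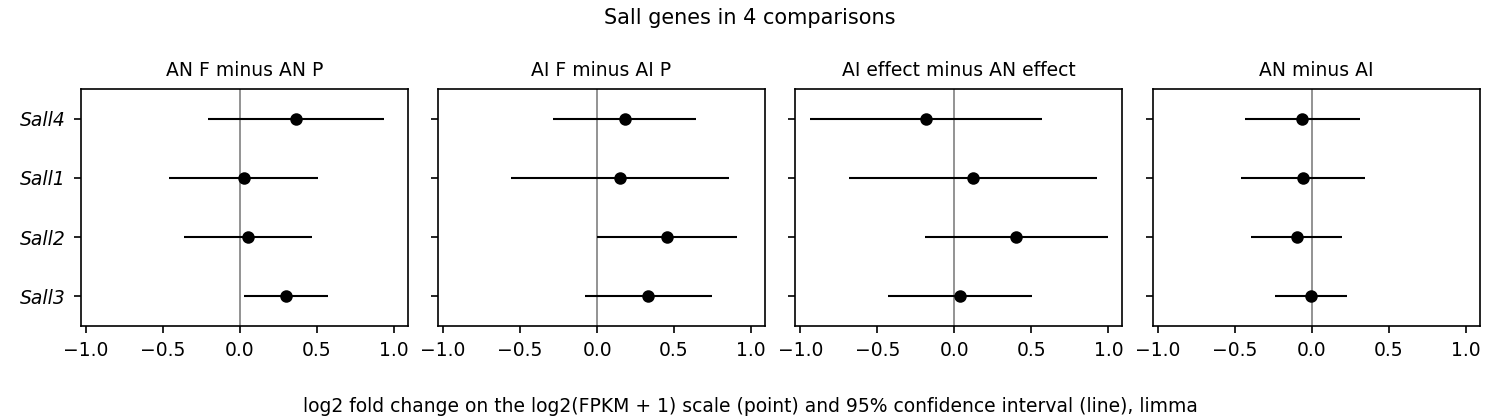
Log2 fold change of each member, with its 95% interval from limma, in AN F against AN P, AI F against AI P, the difference between those effects, and AN against AI. The intervals span 0 except for Sall3 in AN (0.03 to 0.57) and, at its edge, Sall2 in AI (0.00079 to 0.91).

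All 4 members had their lowest value of the study in AN6, as did 13.8% of the genes tested, and their sum there was 37.1 FPKM against a median of 67.0. In AN6, Sall4 was 1.05 below its median over the lines on the log2 scale, Sall1 0.73, Sall3 0.55 and Sall2 0.48. GS9 was the second lowest line by the sum, at 50.3 FPKM, and ranked the second or the third from the bottom for each gene. AI3 had the highest sum, at 94.9 FPKM, with Sall1 and Sall2 raised together and Sall3 at its median. High values did not always come together. AN20 had the highest Sall4 with the second lowest Sall2, AI10 the highest Sall3 with Sall1 and Sall4 near their medians, and GS4 the highest Sall1 with Sall2 0.30 below its median.

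**Figure D3:**
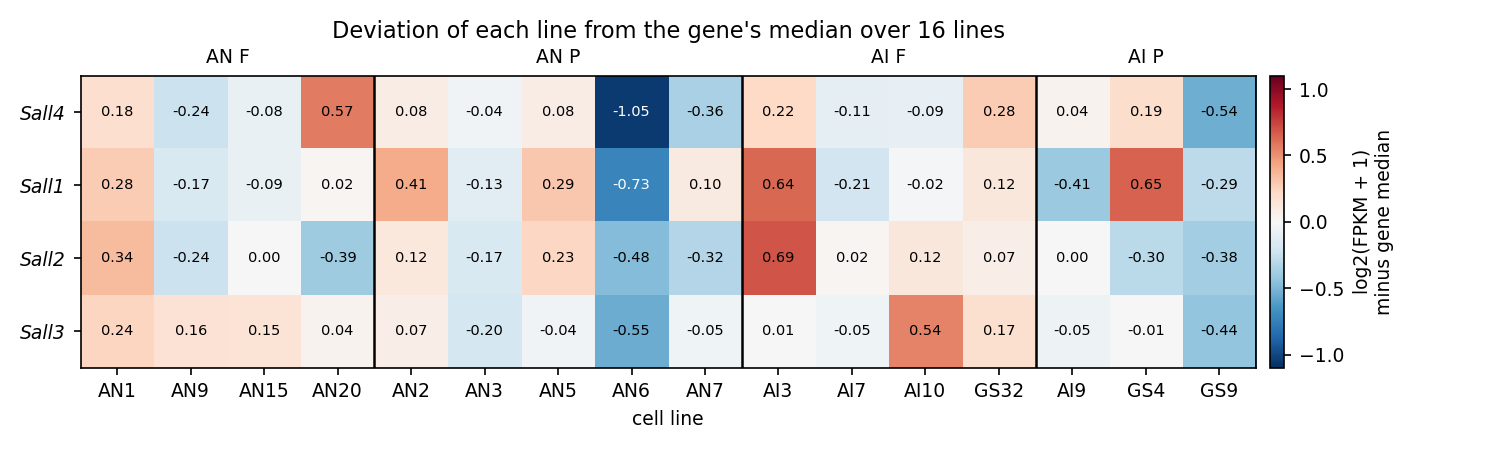
Log2(FPKM + 1) of each member in each line, as the difference from the median of that member over the 16 lines. AN6 is negative for all 4 members (-1.05 for Sall4), as is GS9, while AI3, GS4, AN20 and AI10 are high for 1 or 2 members each.

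Set against genes of like level, Sall4 and Sall1 varied more between lines than most. The SD of log2(FPKM + 1) over the 16 lines was 0.38 for Sall4, 0.37 for Sall1, 0.31 for Sall2 and 0.25 for Sall3. Of the 500 genes nearest in mean level, 90.6% had a lower SD than Sall4, 88.2% than Sall1, 75.4% than Sall2 and 61.8% than Sall3.

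The levels of the members were moderately correlated between lines. Across the 16 lines, Pearson's r of log2(FPKM + 1) ran from 0.447 for Sall1 with Sall3 to 0.670 for Sall1 with Sall4 over the 6 pairs. These correlations describe the lines, which share donor cells, culture and library preparation. For Sall1 with Sall4, Spearman's rho was 0.703, r was 0.744 within AN and 0.638 within AI, and r was 0.454 without AN6 and GS4, the lines farthest from the median of Sall1. Without AN6 alone, the 6 values were 0.195 to 0.478. Some of the 13184 other genes tested had a higher r with each member than the rest of the family had. Among them, Sall4 ranked 557th and Sall2 1271st in likeness to Sall1. Over all pairs the ranks ran from 241st, for Sall4 with Sall3, to 1999th, for Sall3 with Sall1.

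By the highest r over the 16 lines, the 3 genes most like Sall4 were Fnip2 (r = 0.947), Setd5 (0.944) and Zfp462 (0.938). Zfp462 encodes another zinc finger protein, and Setd5 a SET domain protein. They ranged from 3.69 to 7.53, 25.3 to 38.3 and 7.02 to 15.95 FPKM. Their r within AN was 0.953 to 0.976, within AI 0.848 to 0.936, and without AN6 0.892 to 0.907.

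The genes most like Sall1 were Pax6 (r = 0.934), which encodes a transcription factor of eye and brain, Slc39a14 (0.934), a zinc and manganese transporter, and Gm98 (0.933). Pax6 ranged from 2.07 FPKM in AN6 to 11.04 in AI3. Its r with Sall1 was 0.933 within AN, 0.967 within AI and 0.906 without AN6. For Sall2, they were Bahcc1 (0.938), Aff3 (0.927) and Cnksr3 (0.926), at 0.917 to 0.948 without AN6. For Sall3, they included Slc30a1 (0.850), which exports zinc from cells, and Gtf3c4 (0.830), a subunit of a general factor of RNA polymerase III.

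Neighbouring genes were taken by position, while the genes above were picked for the highest r among 13181. The values of the neighbours are therefore given without comparison to those genes. For the genes next to Sall1 (Cyld and Tox3), Sall2 (Mettl3 and Olfr1513) and Sall4 (Atp9a and Zfp64) in the annotation, r with the member ran from -0.354 to 0.234 over the 16 lines. Mettl3, an RNA methyltransferase that lies 6043 bases from Sall2, was at 19.6 to 37.7 FPKM with r = -0.354. Olfr1513, an olfactory receptor, was listed at or near 0, with a highest value of 0.0577 FPKM.

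Partner genes and marker genes were read in 7 lists, in which 0 genes were called in any of the 4 comparisons. The NuRD complex is a main partner of Sall proteins. All 15 subunits were tested, with 7 higher and 8 lower in AN F (median log2 fold change -0.01) and 8 higher and 7 lower in AI F (median 0.02). The medians of all genes tested were -0.01 and -0.04. Hdac1, a deacetylase subunit, stood at 201.4 to 355.2 FPKM, and Rbbp4, a histone-binding subunit, at 84.8 to 124.9. The helicase subunit Chd3 had the smallest p of the list in AI, with a log2 fold change of 0.57 (SE 0.23, adjusted p = 0.521 by limma).

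The mean log2(FPKM + 1) of the NuRD list spanned only 5.76 in AN6 to 5.97 in AI3. Over these small differences its r was 0.792 with Sall2, 0.777 with Sall1, 0.457 with Sall4 and 0.255 with Sall3 (0.587 within AN and -0.0785 within AI). Without AN6, the values for Sall2 and Sall1 were 0.754 and 0.714. Single subunits went both ways, with 11 of 15 above 0 and 4 below 0 for Sall1 (median 0.33). The counts were the same for Sall2 (median 0.244). With Sall1, r ran from -0.818 for Rbbp7 to 0.900 for Gatad2a, and with Sall2 from -0.581 for Rbbp7 to 0.608 for Mta1. Of all genes tested, 49.3% had an r below 0 with Sall1 and 52.9% with Sall2.

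The pluripotency list showed 17 of its 19 genes higher and 2 lower in AN F (median 0.13), and 5 higher and 14 lower in AI F (median -0.26). Sall4 and Sall1, expressed with these genes in embryonic stem cells, had log2 fold changes above 0 in both comparisons, with 95% intervals that included 0. Klf2, a naive pluripotency factor, had the smallest p of the list in AI, with 43.1 ± 12.7 FPKM in AI F (SD, n = 4), 76.6 ± 24.5 in AI P (SD, n = 3) and an adjusted p of 0.521 by limma. The mean of the list was lowest in AN6 (4.78) and highest in GS4 (5.90). Its r was 0.490 with Sall4 and 0.462 with Sall1 over 16 lines, and 0.0231 and 0.153 without AN6. With Sall2 it was -0.227 over 16 lines, 0.244 within AN, -0.741 within AI and -0.697 without AN6. Of the 19 genes, 13 had an r below 0 with Sall2, beside 52.9% of all genes tested. The counts below 0 were 1 for Sall1 (49.3% of all genes tested), 2 for Sall4 (52%) and 6 for Sall3 (54.7%). Single factors were also low in AN6, with Esrrb at 20.01 FPKM against a median of 43.8, Zfp42 at 70.6 against 141.8 and Sox2 at 152.7 against 195.8. Pou5f1 was at 657.2 against a median of 809.3.

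The genes of the cereblon ligase, which contains the adaptor Ddb1, the scaffolds Cul4a and Cul4b and the RING protein Rbx1, had 3 of 6 higher in AN F and 1 of 6 higher in AI F (medians -0.05 and -0.06). Ddb1 was steady at 233.0 to 280.0 FPKM. The substrate receptor Crbn ranged from 14.0 in AI3 to 26.3 in GS9. Cul4b had the smallest p of the list in AN, where AN F had 97.4 ± 38.2 FPKM (SD, n = 4) against 66.0 ± 4.05 for AN P (SD, n = 5), with an adjusted p of 0.636 by limma. The high mean came with 148.9 FPKM in AN20, the line with the highest Sall4.

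The mean of this list had an r of -0.823 with Sall2 (rho -0.929, within AN -0.835, within AI -0.815, without AN6 -0.848). Its values spanned only 5.64 to 5.85. Of the 6 single genes, 5 had an r below 0 with Sall2, beside 52.9% of all genes tested. The 5 ran from -0.604 for Crbn to -0.0218 for Ddb1, and Dda1 had 0.152. With Sall4 the genes went both ways, from -0.907 for Rbx1 to 0.494 for Ddb1.

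Markers of other cell types differed between lines as well. The trophoblast list, of which 9 of 12 genes were tested, was lower in AN F for all 9 (median -0.18), and 6 were higher and 3 lower in AI F (median 0.13). Its summed FPKM over all 12 genes was 108 to 306 in AN F and 111 to 1178 in AN P. It was 58.1 to 333.7 in AI F and 52.2 to 273.4 in AI P, with the highest value of all lines in AN6. Most of that sum came from the keratins Krt8 (661.9 FPKM) and Krt18 (469.2), which are epithelial genes and not particular to trophoblast. Of the defining markers, Cdx2 was at 4.75 and Eomes at 16.2 in AN6, both below AI10 (10.5 and 24.5), while Hand1 was highest in AN6 at 1.67 and Elf5 was near 0 in all lines, at most at 0.0791.

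The mean of the trophoblast list, over all 12 genes, had an r of -0.846 with Sall1 and -0.690 with Sall4 over the 16 lines. For Sall1 it was -0.842 within AN, -0.857 within AI and -0.772 without AN6, and for Sall4 -0.458 without AN6. Of the 9 genes, 8 had an r below 0 with Sall1 (median -0.622), led by Krt8 (-0.916) and Krt18 (-0.897). Over all genes tested, the median r with Sall1 was 0.01, with 49.3% below 0 and 10.9% below -0.5. For Sall4, 8 of 9 were below 0 (median -0.547), beside 52% of all genes tested, with Krt18 at -0.747 and Hand1 at -0.710. The counts were 8 for Sall2 (median -0.206) and 7 for Sall3 (median -0.185). In GS4 and AI3, the lines with the highest Sall1, Krt8 was low, and the lowest Krt8 value of the study was 17.8 FPKM in GS4. The part of these cells or genes in the Sall1 and Sall4 levels was not tested.

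The fibroblast list had 2 of 20 genes higher and 18 lower in AN F (median -0.21), and 20 of 20 higher in AI F (median 0.94). Its summed FPKM was 1395 to 2319 in AN F, 1678 to 3082 in AN P, 1773 to 3154 in AI F and 883 to 2753 in AI P. None of the defining markers was at 0, and Col1a1 ran from 27.4 FPKM in GS9 to 231 in GS32. For Sall2, 18 of the 20 genes had an r above 0 (median 0.552) and 2 below 0, beside 52.9% of all genes tested below 0. The counts below 0 were 1 for Sall3 (54.7% of all genes tested), 3 for Sall4 (52%) and 5 for Sall1 (49.3%). The mean of the list had an r with Sall2 of 0.526 over the 16 lines, 0.281 within AN and 0.714 within AI. For Sall3 the values were 0.421, -0.142 and 0.721, for Sall4 0.248, -0.0564 and 0.647, and for Sall1 0.0856, 0.135 and 0.0735. AI F thus had the higher mean of Sall2 and the higher median of the fibroblast markers, and the part of the markers in the result for Sall2 was not tested.

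**Figure D4:**
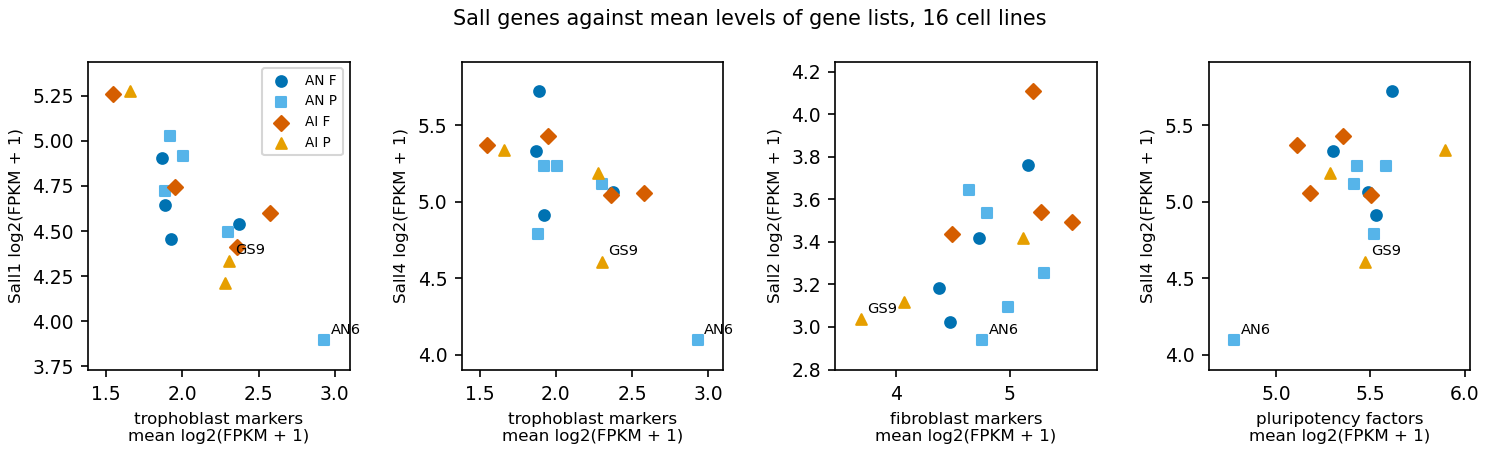
Log2(FPKM + 1) of a Sall gene in each of the 16 lines (vertical axis) against the mean log2(FPKM + 1) of a gene list (horizontal axis), for Sall1 and Sall4 with the trophoblast markers, Sall2 with the fibroblast markers and Sall4 with the pluripotency factors. Sall1 is lower where the trophoblast mean is higher (r = -0.846), while in the panel of the pluripotency factors AN6 stands apart (r = 0.490 with it and 0.0231 without it).

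The early neural list had 4 of 11 genes tested higher in AN F (median -0.02) and 10 of 11 higher in AI F (median 0.35). Sox3 had the smallest p of the list in AI, at 15.6 ± 5.31 FPKM in AI F (SD, n = 4) and 7.43 ± 2.11 in AI P (SD, n = 3), with an adjusted p of 0.521 by limma. The list mean, over all 16 genes of the list, had an r of 0.750 with Sall2, 0.671 with Sall3 and 0.320 with Sall4. In the same order, Spearman's rho was 0.759, 0.376 and 0.112, and r without AN6 was 0.706, 0.587 and 0.0529. With Sall1, r was 0.215 (0.752 within AN, -0.125 within AI and -0.0053 without AN6). The defining markers were present at low to moderate levels, Sox1 at 0.829 to 3.33 FPKM, Pax6 at 2.07 to 11.04 and Tubb3 at 17.3 to 44.5.

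The extraembryonic endoderm list had 1 of 8 genes tested higher in AN F (median -0.23) and 7 of 8 higher in AI F (median 0.41). Its summed FPKM over all 16 genes, tested or not, was 59.6 in GS9 to 192 in GS32. The defining markers Gata4, Gata6, Sox7 and Sox17 were each at 1.99 FPKM or less in every line. Its mean over the same 16 genes had an r of 0.359 with Sall2, 0.339 with Sall3, 0.0222 with Sall4 and -0.175 with Sall1. For Sall3 it was -0.487 within AN and 0.839 within AI, and for Sall4 -0.388 and 0.522. Against the relative depth of the lines, r over the 16 lines was 0.339 for Sall4, 0.239 for Sall3, 0.00163 for Sall1 and -0.297 for Sall2. It was -0.646 for Sall2 within AN, and 0.489 for Sall4 and 0.469 for Sall3 within AI. The FPKM sum of a line, which was highest in GS9, had an r of -0.613 with Sall2 (-0.402 within AN, -0.763 within AI) and -0.464 with Sall3 (0.0293 within AN, -0.742 within AI). The part of depth and of the FPKM sum in these levels was not tested.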

How the data were processed

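Per the paper's methods and the processing notes, the authors sequenced total RNA as single-end reads, mapped them to mm9 with TopHat 2.1.0 and computed FPKM with Cufflinks 2.2.1. The notes also name HTSeq, without its role. For each gene name, the deposited table has 1 FPKM value in each line and no read count, so the reads behind a value are unknown. The library normalization is not given in the sources used here.

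Values were used as deposited and transformed to log2(FPKM + 1). The 13185 of 22552 genes with a mean of at least 0.5 FPKM were fitted with limma-trend (limma 3.58.1, R 4.3.3), and p-values were adjusted over all of them by Benjamini-Hochberg, at a threshold of 0.05. AN F and AN P (9 lines) and AI F and AI P (7 lines) were each fitted alone, and the difference of effects and AN against AI in all 16 lines. Cuffdiff, which the authors used, needs reads. Single members were also compared by exact two-sided permutation tests, with p as 2 times the smaller tail, in Python 3.11.15. F and P were matched to lines by title. The limma p-values set a difference against the spread between lines, and the permutation p-values set it against splits of the lines.

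The members, the 7 lists and the tests were chosen with earlier results of these data known. The genes named are the members, the 3 genes with the highest r to each (1 of those for Sall3 is not reported here), the neighbours in the annotation, the defining markers, and in each list the highest genes and those with the smallest p in AN and AI. Other list genes (Cul4a among them) and other values were named after they were seen. The fit was tested on simulated data. Of the table's gene names, 21575 (95.7%) were in the mm9 annotation, and the Sall3 locus is not described here. The limma calls and the log2 fold changes of the members were recomputed under other settings. These were a pseudocount of 0.1, a minimum mean of 5 FPKM, no filter, quantile normalization, median-ratio scaling, no trend and passage as a term. Each line of a comparison was also left out in turn. A fit of all lines was used only for AN and for AI, and derivation as a term only for AI. The permutation tests and list counts were not recomputed in this way. Correlations without AN6, and with single list genes, were added after the data were seen.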

Additional observations from a re-analysis of the deposited data

Results flagged for a closer look

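Sall2 in AI3, at 16.2 FPKM, stood apart from the other AI F lines by Dixon's criterion at the 95% level, since AI7, AI10 and GS32 lay between 9.85 and 10.6 FPKM. Of 12 groups of 4 or 5 lines checked (4 members in AN F, AN P and AI F), 1 met the criterion, and chance would give 0.6. AI P, with 3 lines, was not checked. Without AI3, the log2 fold change of Sall2 in AI F over AI P was 0.30, the lowest of those with 1 line left out.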

How the results depend on the processing

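No paired analysis was possible because the labels give no replicate numbers and the line numbers name clones. For the members, 312 values were recomputed, and 0 had an adjusted p under 0.05 in limma. Of the 120 that kept all lines, 115 kept their direction. The difference of effects for Sall3 was -0.0092 with quantile normalization. For AN against AI, passage as a term gave 0.15 for Sall1, 0.052 for Sall3 and 0.061 for Sall4, and a pseudocount of 0.1 gave 0.0011 for Sall3. The cause was not tested. With a minimum mean of 5 FPKM, Sall3 had no value. Of the 192 with 1 line left out, 27 turned sign. In AN, the ranges were -0.15 to 0.13 for Sall1, -0.085 to 0.16 for Sall2, 0.20 to 0.35 for Sall3 and 0.17 to 0.48 for Sall4. In AI, they were -0.051 to 0.48, 0.30 to 0.57, 0.20 to 0.41 and -0.039 to 0.33. For the difference they were -0.076 to 0.46, 0.25 to 0.54, -0.10 to 0.13 and -0.40 to 0.014, and for AN against AI -0.16 to 0.11, -0.17 to -0.021, -0.071 to 0.059 and -0.17 to 0.039. With all lines kept, 0 genes were called in each comparison under every alternative. With 1 line left out, 0 to 1 were called in AN, 0 to 5 in AI (5 without GS9), 0 to 651 in the difference (651 without AI9) and 0 to 1 in AN against AI. Sall3 lies near 1 FPKM, where the number of reads is unknown.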
